A study of Mus musculus with 19 samples.

Results

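The 7 mRNAs described here are Cdkn1a, Rbl1, Rbl2, E2f7, Inhbb, Plxnb2 and Mbnl1, which earlier work had described as direct targets of the RNA-binding protein TRIM71. They were taken by gene symbol from a table of 21685 genes, and all 7 were among the 14988 genes that passed the filter on low values. Expression had been measured by mRNA sequencing in male C57BL/6 mouse embryonic stem cells cultured in fetal calf serum plus leukaemia inhibitory factor, from which SSEA-1-positive cells had been enriched magnetically.

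Group names give Trim71 before Lin28a. WT-WT cells (labelled Trimfl/fl - Lin28afl/fl, 4 libraries) and WT-KO cells (Trimfl/fl - Lin28a-/-, 5 libraries) kept floxed Trim71. KO-WT (Trim-/- - Lin28afl/fl, 4 libraries used of 5) and KO-KO cells (Trim-/- - Lin28a-/-, 5 libraries) were labelled null for Trim71. The protocol was 500 nM 4-hydroxytamoxifen for 2 days and at least 7 further days in culture. It is listed alike for all libraries, also those with floxed Trim71, so whether treatment differed between the groups cannot be told from it. The labels name neither the recombinase that 4-hydroxytamoxifen acts on nor how the Lin28a-null clones were made. Lin28a-intact cells came from clones 1 and E3 and Lin28a-null cells from clones 1-4 and C1, so Lin28a state and clone cannot be told apart. Trim71 states were compared between cells of the same clones, though WT-WT and KO-WT held clones 1 and E3 in unequal numbers and the fits had no clone term. Nothing in the labels says that libraries of a genotype came from separate cultures, so p-values measure the spread between these libraries.

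TRIM71 is a ubiquitin ligase of the TRIM-NHL family whose NHL domain also binds mRNA. It recognises short hairpins with a loop of 3 bases, mostly in 3' untranslated regions (3' UTRs), and its binding leads to lower levels or less translation of the bound mRNA. The protein is abundant in embryonic stem cells, where it is known for favouring proliferation over differentiation. LIN28A binds let-7 precursors and blocks their maturation into let-7, a microRNA that represses Trim71 among other mRNAs.

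The 3' UTRs of the longest annotated coding transcripts (GENCODE M21, GRCm38) were searched for hairpins of at least 6 Watson-Crick base pairs closed by 3 loop bases. They are shown for the 3 higher-expressed targets that hold one, because a hairpin is the form of RNA that TRIM71 binds. Stems are in lower case and loop bases in capitals, 5' to 3' on the transcript.
Inhbb, 8 base pairs, chr1:119417151-119417169, minus strand: cagagggaGAAtccctctg
Plxnb2, 6 base pairs, chr15:89155957-89155971, minus strand: ggaggcATGgcctcc
Mbnl1, 6 base pairs, chr3:60628513-60628527, plus strand: atctagATCctagat

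Such matches describe the sequence and are no evidence of binding. A hairpin of this kind was present in 59.3% of the 2774 3' UTRs within 20% of the length of that of Inhbb. The shares for UTRs like those of Plxnb2 and Mbnl1 were 31.0% and 80.5%. The Cdkn1a 3' UTR, with 1334 bases, held none under this rule, while Rbl1 held 3, Rbl2 held 1 and E2f7 held 4. The let-7 seed match, CTACCTC, occurred in E2f7 and in no other member. It is shown in capitals below the microRNA, whose seed, bases 2 to 8, is also in capitals (RefSeq, GRCm38.p6). Among 3' UTRs of similar length to that of E2f7, 14.3% hold a seed match.
mmu-let-7a-5p: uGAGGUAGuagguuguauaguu
E2f7 3' UTR, chr10:110786993-110787013, plus strand: ggatgtgCTACCTCaaaccat

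All values below are deposited log2 expression, in which a difference of 1 is a doubling. Day effects had already been removed from them. SDs, ranges and a lack of overlap between libraries therefore understate the spread. Trim71 itself ran from 10.04 to 11.00 in the libraries with floxed Trim71 and from 8.77 to 9.55 in Trim71-null libraries. Lin28a ran from 9.74 to 10.26 with Lin28a intact and from 8.21 to 8.57 in null libraries, in the direction the labels give for both genes. Trim71 was 2.48-fold lower after its loss with Lin28a intact and 2.59-fold lower without Lin28a. Lin28a was 3.14-fold lower after its loss with floxed Trim71 and 2.95-fold lower in Trim71-null cells. Both stayed above the median of all tested values, 7.37, in null libraries. These values alone thus do not show complete loss, and null follows the labels. After Lin28a loss Trim71 was called higher, by 0.45 with floxed Trim71 (limma adjusted p 0.00431) and 0.38 in Trim71-null cells (adjusted p 0.0111). After Trim71 loss Lin28a was called lower with Lin28a intact (-0.28, adjusted p 0.036) and was not called in Lin28a-null cells (-0.19, adjusted p 0.0971). The part of these changes in those of the members was not tested. The stem cell genes Pou5f1 and Nanog stood at 12.55 or more and 12.12 or more in every library, and all 8 stem cell markers passed the filter. Of 8 fibroblast markers 3 passed the filter, as did 5 of 8 neural and 3 of 8 mesoderm markers. The summed neural markers, on the linear scale, ran from 489 to 620 units in WT-WT and from 433 to 485 in KO-WT, and from 644 to 826 in WT-KO and 658 to 693 in KO-KO. In the contrast averaged over both Lin28a states Tubb3 (neural, -0.32, limma adjusted p 0.0115) and Kdr (mesoderm, -0.24, adjusted p 0.0172) were called lower and Eomes (mesoderm and trophectoderm lists, 0.19, adjusted p 0.0377) higher. The sum over 8 primitive endoderm markers was higher after Trim71 loss, and Lama1 alone made up 78.7% to 93.7% of it in each library. The sum was 1447 to 1779 units in WT-WT and 1904 to 2453 in KO-WT, and 964 to 1259 in WT-KO and 1365 to 1680 in KO-KO. Of the 6 that passed the filter, Lama1 was called higher in both comparisons and Sox7 in the Lin28a-null one, while Gata4, Gata6, Pdgfra and Dab2 were called in neither, and Sox17 and Foxa2 were below the filter. In bulk samples more cells of a type and more RNA per cell cannot be told apart. The part of these marker genes in the changes below was not tested.

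After loss of Trim71 some of its reported targets were called higher and others were not called. Not being called does not show that a level was unchanged. With Lin28a intact, Inhbb, Plxnb2 and Cdkn1a rose, and without Lin28a the same 3 and Mbnl1 rose. Rbl1, Rbl2 and E2f7 passed the test in neither state, and no member was called lower, against 6.43% of all genes with Lin28a intact and 4.12% without. In numbers, 3 of 7 members were called higher between KO-WT and WT-WT (limma, Benjamini-Hochberg adjusted p under 0.05), where 4.74% of all genes tested were called higher. Between KO-KO and WT-KO there were 4 of 7, against 4.26% of all genes. Members called higher in both comparisons numbered 3, against 1.83% of all genes. Libraries did not overlap for 3 of 7 members with Lin28a intact, where 13.0% of all genes were higher without overlap, and for 4 of 7 without Lin28a, where 6.05% were. The members were chosen with earlier results of these data known, so these shares describe them and are no independent test.

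The median log2 difference of the 7 members was 0.08 with Lin28a intact and 0.38 without Lin28a, while the medians over all tested genes were -0.005 and -0.009. Averaged over both Lin28a states, the members' median was 0.29, and 4 of 7 were called higher, against 8.52% of all genes, and none lower, against 9.98%. This averaged contrast draws on all 18 libraries and was the most precise.

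**Figure D1:**
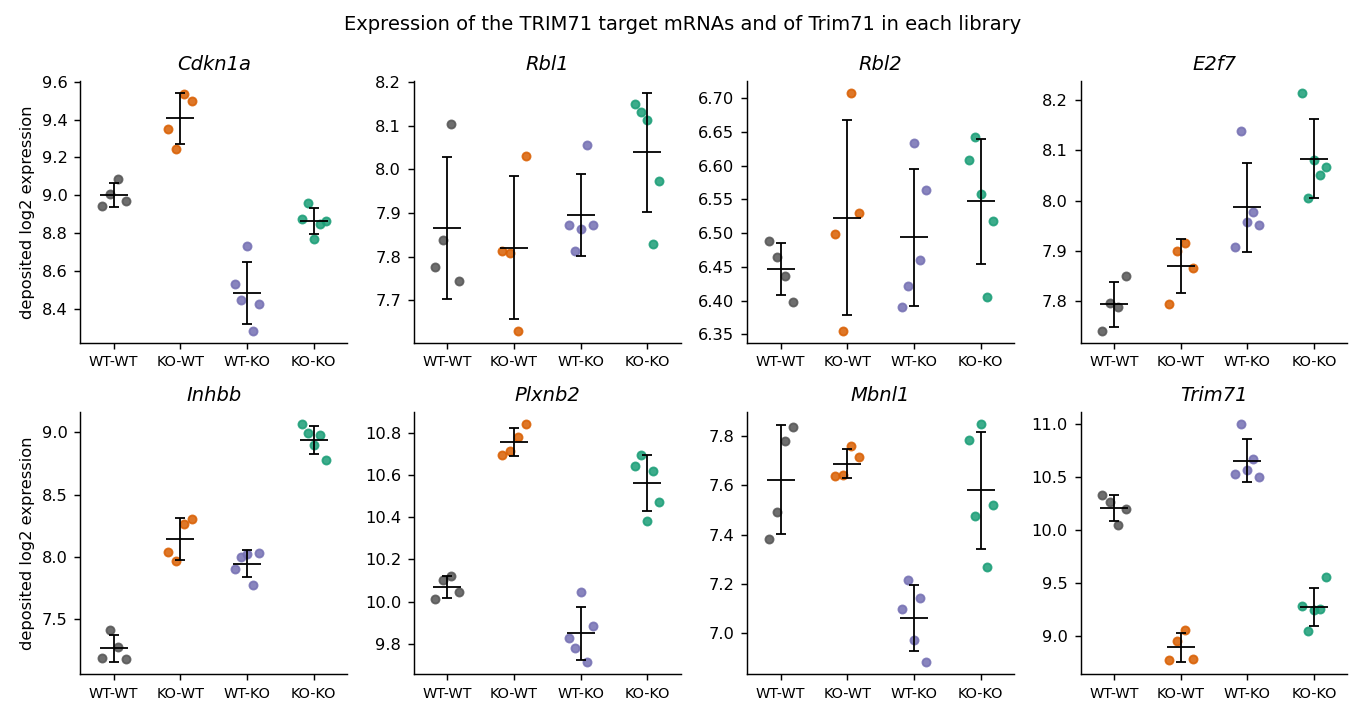
Deposited log2 expression (vertical axes, a different range in each panel) of the 7 targets and of Trim71 in each library, by genotype; points are libraries, horizontal marks means and bars ± 1 SD (n = 4, 4, 5 and 5). Inhbb, Plxnb2 and Cdkn1a are higher in Trim71-null than in Trim71-intact libraries within each Lin28a state, with no overlap. Day effects had been removed from the values, which narrows the spread shown.

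Inhbb encodes the activin βB chain, which forms activin B as a dimer and inhibin B with the α chain, ligands of the TGF-β superfamily. The gene lies at chr1:119415465-119422248 on the minus strand. In WT-WT libraries it stood at 7.18, 7.41, 7.27 and 7.18, and in KO-WT libraries at 8.04, 7.97, 8.27 and 8.31. Every KO-WT library was above every WT-WT library, by a mean of 0.88 ± 0.0946 (SE; limma adjusted p 8.32e-05), a 1.84-fold increase.

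Without Lin28a, Inhbb stood at 7.90, 8.0, 8.02, 7.77 and 8.03 with Trim71 and at 9.07, 8.99, 8.90, 8.98 and 8.77 after its loss. The groups again did not overlap, and the difference of 1.00 ± 0.0810 (adjusted p 2.83e-06) was a 2.00-fold increase. Ordered by increase over the 14988 genes, Inhbb was number 7 with Lin28a intact and number 6 without Lin28a. Libraries with the same day label differed by 0.56, 0.99 and 1.13 on days 3, 4 and 5 with Lin28a intact, and by 0.74 to 1.20 on 5 of 5 days without it. The first call was lost when the fit held only E3 and C1 cells (0.74, adjusted p 0.0512) and in a fit of the 2 genotypes alone (0.89, adjusted p 0.0525). In clones 1 and 1-4 alone, where KO-WT had a single library, the Lin28a-intact difference was 1.15.

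Plxnb2 encodes plexin B2, a transmembrane receptor for class 4 semaphorins, and lies at chr15:89155549-89180788 on the minus strand. Its values were 10.01, 10.10, 10.12 and 10.04 in WT-WT and 10.70, 10.71, 10.78 and 10.84 in KO-WT. The spread within each genotype was small beside the gap between them, with SDs of 0.0505 and 0.0669 (n = 4 each) in values without day effects. The difference was 0.69 ± 0.0793 (SE; limma adjusted p 0.00013), or 1.61-fold.

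In Lin28a-null cells Plxnb2 stood at 9.83, 9.78, 10.05, 9.71 and 9.88 in WT-KO and at 10.64, 10.69, 10.38, 10.62 and 10.47 in KO-KO. The highest WT-KO library and the lowest KO-KO library shared day 3, and the groups did not overlap. The difference was 0.71 ± 0.0679 (adjusted p 1.09e-05), or 1.64-fold, close in size to that with Lin28a intact. Same-day differences were all positive, at 0.61, 0.66 and 0.80 with Lin28a intact and from 0.33 on day 3 to 0.92 on day 2 without Lin28a. In clones E3 and C1 alone the Lin28a-intact difference was 0.61 and lost its call (adjusted p 0.0859). It was 0.83 in clones 1 and 1-4 alone, where KO-WT had a single library.

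Inhbb and Plxnb2 have GC-rich transcripts, and 96.9% and 87.4% of the 14724 tested genes with an annotated sequence had a lower GC content. With each library's trend on GC content and length removed, the Lin28a-intact differences were 0.78 for Inhbb (adjusted p 3.71e-05) and 0.64 for Plxnb2 (adjusted p 3e-05). Cdkn1a, with 73.2% of genes below it, had 0.32 (adjusted p 0.0284). All 3 thus kept their calls in that fit.

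**Figure D2:**
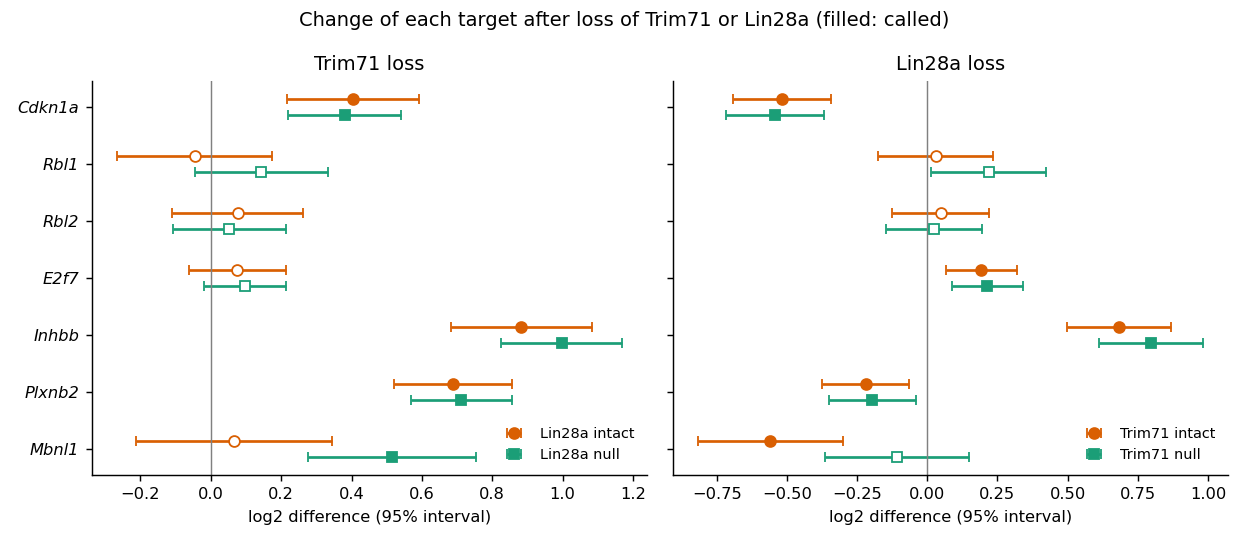
Log2 difference of each target (horizontal axes) after loss of Trim71, left, and of Lin28a, right, with 95% intervals from limma; circles are the comparison with the other gene intact and squares with it null, and filled marks passed the adjusted threshold. Inhbb lies to the right of 0 in both panels, whereas Cdkn1a and Plxnb2 lie to the right on the left and to the left on the right.

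Among the cell cycle regulators, Cdkn1a encodes p21, an inhibitor of cyclin-dependent kinases (chr17:29090976-29100727, plus strand). It stood at 8.94, 9.01, 9.09 and 8.97 in WT-WT and at 9.35, 9.24, 9.53 and 9.50 in KO-WT. The ranges did not overlap, and the difference was 0.40 ± 0.0889 (SE; limma adjusted p 0.0123), a 1.32-fold increase.

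Lin28a-null libraries held Cdkn1a at 8.53, 8.45, 8.73, 8.28 and 8.42 with Trim71 and at 8.87, 8.96, 8.77, 8.85 and 8.87 without it. The closest approach was on day 3, where the same-day difference was 0.04, against 0.34 to 0.57 on the other 4 days. The overall difference was 0.38 ± 0.0761 (adjusted p 0.00571). Both calls were lost when only clones E3 and C1 were fitted (adjusted p 0.239 and 0.174) and with days 3, 4 and 5 alone (adjusted p 0.0653 and 0.145), and the first also without KO-WT replicate 3 (adjusted p 0.053) and in a fit of the 2 genotypes alone (adjusted p 0.0895). The averaged contrast gave 0.39 ± 0.0585 (adjusted p 0.000277), and 0.35 (adjusted p 0.0599) in E3 and C1 cells. With Lin28a intact the difference was 0.32 in E3 and C1 cells and 0.56 in clones 1 and 1-4, where KO-WT had a single library.

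Cdkn1a is also a classical transcriptional target of p53. A list of p53 and its targets held 12 other genes, all tested. After Trim71 loss with Lin28a intact 4 of them were called higher, against 4.74% of all genes. Without Lin28a there were 4, against 4.26%, and only Btg2 was called in both. In the averaged contrast 7 were called higher, against 8.52% of all genes. None was called lower, where 6.43%, 4.12% and 9.98% of all genes were in these contrasts. The list's median in the averaged contrast was 0.14, beside -0.008 over all genes. In that contrast Btg2, an antiproliferative gene, rose by 0.54 ± 0.0599 (limma adjusted p 2.34e-05) and Gdf15, a stress-induced cytokine, by 0.19 ± 0.0624 (adjusted p 0.0407). Gdf15 was called in neither single contrast (limma adjusted p 0.165 and 0.188). The part of p53 in the level of Cdkn1a was not tested.

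Rbl1 and Rbl2 encode p107 and p130, pocket proteins that bind E2F factors and repress cell cycle genes. Rbl1 (chr2:157145893-157204534, minus strand) ran from 7.74 to 8.10 in WT-WT and from 7.63 to 8.03 in KO-WT. Those ranges overlapped almost wholly, and the difference was -0.05 (95% interval -0.27 to 0.18). Without Lin28a, Rbl1 was at 7.87, 7.81, 7.86, 8.06 and 7.87 in WT-KO and at 8.15, 8.13, 8.11, 7.83 and 7.97 in KO-KO. It was higher in KO-KO on 4 of 5 days and lower on day 4, for a difference of 0.14 (interval -0.05 to 0.33, limma adjusted p 0.367). In clones 1 and 1-4 alone, where the 1 KO-WT library is assumed to vary like the other groups, the averaged difference was 0.25 and was called (adjusted p 0.0358).

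Rbl2 (chr8:91070057-91123844, plus strand) was the least variable of the 7 across genotypes, with means of 6.45 ± 0.0387 (SD, n = 4) in WT-WT and 6.52 ± 0.145 (n = 4) after Trim71 loss. Lin28a-null cells had 6.49 ± 0.102 (n = 5) in WT-KO and 6.55 ± 0.0922 (n = 5) in KO-KO. All 4 ranges overlapped. Averaged over both Lin28a states the Trim71 difference was 0.06, with an interval from -0.06 to 0.19. An increase as large as that of Cdkn1a lay outside this interval.

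E2f7 encodes an atypical E2F that represses E2F target genes (chr10:110745439-110787384, plus strand). Its means were 7.79 ± 0.0445 (SD, n = 4) in WT-WT and 7.87 ± 0.0536 (n = 4) in KO-WT, and 7.99 ± 0.0888 (n = 5) in WT-KO and 8.08 ± 0.0785 (n = 5) in KO-KO. KO libraries were higher on 3 of 3 days with Lin28a intact and on 4 of 5 without it, but the ranges overlapped. The averaged difference was 0.09 (95% interval -0.004 to 0.18, limma adjusted p 0.172), and it was called only when WT-KO replicate 2, the highest of its group, was left out (0.13, adjusted p 0.0299).

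**Figure D3:**
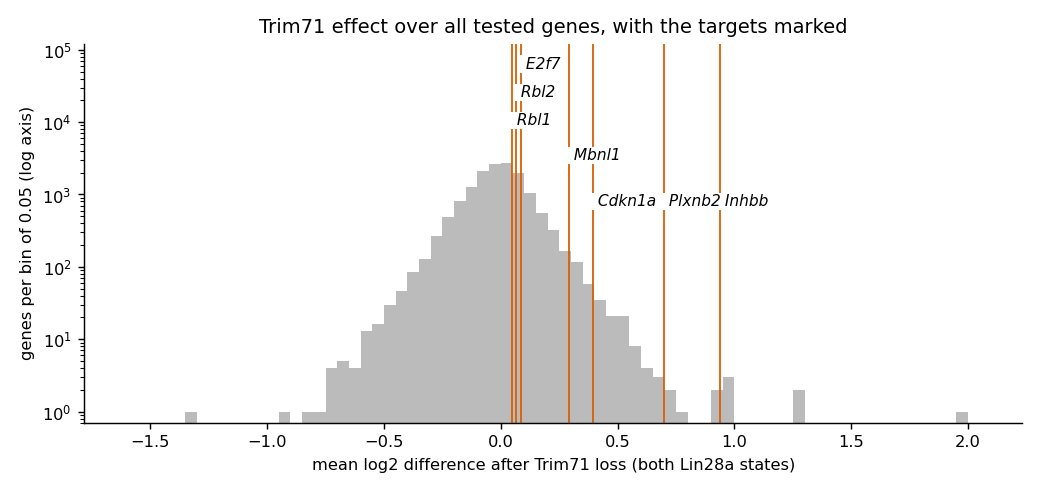
Number of genes (vertical log axis, bins of 0.05) by their log2 difference after Trim71 loss, averaged over both Lin28a states (horizontal axis), for the 14988 genes tested; vertical lines mark the 7 targets. Inhbb (0.94) and Plxnb2 (0.70) lie in the sparse right tail, whereas Rbl1, Rbl2 and E2f7 (0.05, 0.06 and 0.09) lie within the central mass.

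Mbnl1 encodes a regulator of alternative splicing that favours exon choices of differentiated cells. The gene lies at chr3:60472830-60629750 on the plus strand, and its transcript has the lowest GC content of the 7, at 39.7%. With Lin28a intact it stood at 7.38, 7.49, 7.78 and 7.84 in WT-WT and at 7.64, 7.64, 7.76 and 7.71 in KO-WT. The KO-WT values lay inside the WT-WT range, and the difference was 0.07 (95% interval -0.21 to 0.34).

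In Lin28a-null cells the Mbnl1 ranges separated: 7.10, 7.22, 6.97, 7.14 and 6.88 in WT-KO, and 7.78, 7.48, 7.85, 7.27 and 7.52 in KO-KO. The difference was 0.52 ± 0.113 (SE; limma adjusted p 0.00999), a 1.43-fold increase, and it was positive on 5 of 5 days, from 0.13 to 0.87. The call was lost in the fit of E3 and C1 cells (0.42, adjusted p 0.219), in clones 1 and 1-4 alone (0.66, adjusted p 0.0684) and with days 3, 4 and 5 alone (adjusted p 0.0839). The interaction, which asks whether the Trim71 difference depends on Lin28a, was 0.45 (interval 0.08 to 0.82) with an unadjusted p of 0.019 and a limma adjusted p of 0.27 over all genes, so a dependence was not established. With the GC and length trend removed, the Lin28a-intact difference moved to 0.25 (adjusted p 0.162) and the interaction to 0.27 (adjusted p 0.522). The averaged difference of 0.29 ± 0.0865 (adjusted p 0.0283) lost its call in 6 of 18 fits that each left out 1 library, those without WT-WT replicate 1 or 2, WT-KO replicate 5, KO-KO replicate 1, or KO-WT replicate 3 or 4. The highest of those 6 adjusted p-values was 0.092. The averaged call was also lost in each pair of clones (adjusted p 0.25 and 0.0925) and with days 3, 4 and 5 alone (adjusted p 0.109).

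**Figure D4:**
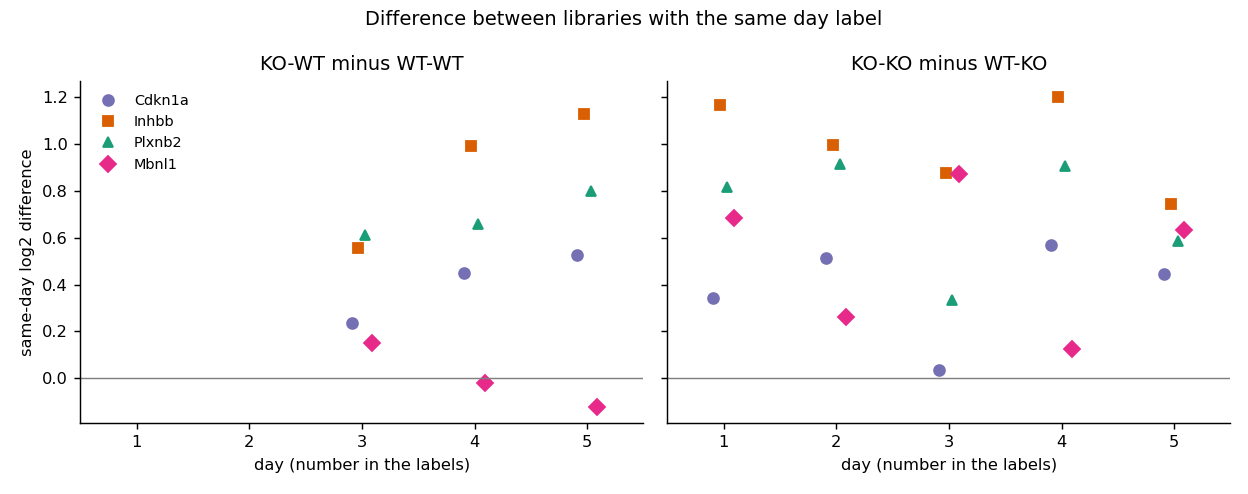
Log2 difference between the Trim71-null and the Trim71-intact library with the same day label (vertical axis) by day number (horizontal axis), with Lin28a intact on the left (3 days with both genotypes) and without Lin28a on the right (5 days). Inhbb, Plxnb2 and Cdkn1a are above 0 on every day, and Mbnl1 is above 0 on 5 of 5 days on the right and on 1 of 3 on the left.

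For the other members the interaction was closer to 0: 0.12 for Inhbb (95% interval -0.15 to 0.38), 0.02 for Plxnb2 (-0.20 to 0.24), -0.02 for Cdkn1a (-0.27 to 0.22), 0.19 for Rbl1 (-0.10 to 0.48), -0.02 for Rbl2 (-0.27 to 0.22) and 0.02 for E2f7 (-0.16 to 0.20). None of the 7 was called by limma, where 0.0200% of all genes were called. At an unadjusted p under 0.05 there was 1 of 7, Mbnl1. It ranked only 1051 by p among the 14988 genes, so such p-values were common.

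After loss of Lin28a members were called in both directions, as were a large share of all genes. Inhbb and E2f7 rose and Cdkn1a and Plxnb2 fell in both Trim71 states, and Mbnl1 fell with Trim71 intact, while Rbl1 and Rbl2 passed the test in neither comparison. With Trim71 intact 5 of 7 were called, 2 higher and 3 lower, where 42.4% of all genes were called, 20.3% higher and 22.0% lower. In Trim71-null cells 4 of 7 were called, 2 higher and 2 lower, against 42.8% of all genes, 20.8% higher and 22.0% lower. Lin28a comparisons rest on different clones, and marker lists differed with them. The trophectoderm sum was 4258 to 5712 units in Lin28a-intact and 961 to 1311 in Lin28a-null libraries. Of its 6 tested genes Krt8, Krt18, Hand1 and Gata3 were called lower in both Lin28a comparisons and Eomes and Tfap2c in neither, with Cdx2 and Elf5 below the filter. Krt8 and Krt18 made up 74.8% to 81.5% of the WT-WT sum. With Trim71 intact, stem cell markers summed to 32879 to 35024 units in WT-WT and 41991 to 47858 in WT-KO. All but Zfp42 (-0.03) were called higher, from 0.17 for Pou5f1 to 0.86 for Nanog. In Trim71-null cells Nanog (0.97), Esrrb (0.60), Fut9 (0.54) and Dppa5a (0.30) were called higher and Utf1 (-0.29) lower. Pou5f1 (0.06), Sox2 (-0.07) and Zfp42 (0.09) were not called there. Fibroblast markers summed to 100 to 125 in WT-WT and 70.0 to 76.7 in WT-KO. Of those tested, Col1a2 (-1.88) and Col1a1 (-0.87) were called lower with Trim71 intact and Thy1 (0.14) was not called. The neural and primitive endoderm sums are given above. With Trim71 intact, all 6 primitive endoderm genes tested were called lower, from -0.27 for Sox7 and -0.31 for Lama1 to -2.78 for Dab2. In Trim71-null cells Dab2, Gata4, Pdgfra and Gata6 were called lower and Sox7 and Lama1 were not called. Of the neural genes Tubb3, Pax6 and Map2 were called higher in both Trim71 states. Nes was called lower with Trim71 intact only (-0.48), and Sox1 was called in neither. The part of these lists in the changes was not tested.

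Cdkn1a differed between WT-KO and WT-WT by -0.52 ± 0.0823 (SE, limma adjusted p 0.000115), and the change in Trim71-null cells was -0.54 ± 0.0823 (adjusted p 7.57e-05). Of the 12 p53-list genes, 6 were called lower and 2 higher in each of these comparisons. Of all genes 22.0% were called lower in each, and 20.3% and 20.8% higher. Inhbb was higher by 0.68 ± 0.0875 (adjusted p 1.47e-05) and 0.80 ± 0.0875 (adjusted p 2.94e-06). E2f7, the member with a let-7 seed match, was higher by 0.19 ± 0.0601 (adjusted p 0.0168) and 0.21 ± 0.0601 (adjusted p 0.00897). Rbl1 stood at 0.22 in Trim71-null cells (adjusted p 0.079), and it was called without KO-WT replicate 4 (0.31), KO-KO replicate 4 (0.29) or WT-WT replicate 3 (0.21), and in a fit of the 2 genotypes alone (0.19, adjusted p 0.0417). E2f7 lost both calls in each pair of clones alone, and the first also with days 3, 4 and 5 alone (adjusted p 0.0565) and without WT-WT replicate 1 (adjusted p 0.0684).

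Plxnb2 was lower after Lin28a loss by -0.22 ± 0.0734 (limma adjusted p 0.024) and -0.20 ± 0.0734 (adjusted p 0.0404). In fits that left out 1 library, the first call was lost without WT-WT replicate 2 or 3 or WT-KO replicate 1 or 4, and the second without KO-KO replicate 3 or 5 or KO-WT replicate 2, 3 or 4. The first was also lost in each pair of clones and with days 3, 4 and 5 alone, and the second in E3 and C1 cells (adjusted p 0.249) and without the variance trend (adjusted p 0.0614). The second also missed the threshold under both other scalings (adjusted p 0.0512 and 0.0527). Without KO-KO replicate 3 it was -0.13 (adjusted p 0.151). Mbnl1 fell by -0.56 ± 0.122 with Trim71 intact (adjusted p 0.00161), and its difference in Trim71-null cells was -0.11 (interval -0.37 to 0.15).

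Loss of both genes, read as KO-KO against WT-WT, shares libraries with the comparisons above. Inhbb had the largest increase of all 14988 genes, at 1.68 ± 0.0875 (SE; limma adjusted p 5.49e-10) or 3.20-fold. Its values were 7.18 to 7.41 in WT-WT and 8.77 to 9.07 in KO-KO. Plxnb2 was higher by 0.49 ± 0.0734 (adjusted p 5.87e-05) and E2f7 by 0.29 ± 0.0601 (adjusted p 0.00106), a call lost in E3 and C1 cells (adjusted p 0.0786). Rbl1 was at 0.17 (adjusted p 0.157), and it was called at 0.24 with the GC and length trend removed and at 0.30 in clones 1 and 1-4. It was also called without WT-WT replicate 3 (0.28) or KO-KO replicate 4 (0.25). Cdkn1a, which rose with loss of Trim71 and fell with loss of Lin28a, ended at -0.14 (95% interval -0.31 to 0.04, adjusted p 0.185), and its KO-KO values of 8.77 to 8.96 overlapped those of WT-WT. With those 2 genotypes alone it was called lower (-0.16, adjusted p 0.0425). In all 3 of 7 members were called higher, against 21.0% of all genes, and none lower, against 24.6%.

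Relatives and partners of the targets were read from fixed lists in the averaged Trim71 contrast, in which 8.52% of all genes were called higher and 9.98% lower. Of 15 genes of the RB and E2F family, 2 were called higher and 1 lower, Tfdp2 at -0.25, an E2F dimer partner named after its value was seen. E2f2, an activating E2F, rose by 0.28 ± 0.0465 (limma adjusted p 0.000724) and E2f8, the other atypical E2F, by 0.27 ± 0.0417 (adjusted p 0.000359). Rb1, the third pocket protein gene, stood at 0.01 (95% interval -0.16 to 0.18). Of 14 G1 cyclins, kinases and inhibitors tested, 2 were called higher, Cdkn2a at 0.24 and Cdk6 at 0.20. Cdkn1b, which encodes the related inhibitor p27, was at 0.03 (interval -0.06 to 0.13).

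In the activin and inhibin list, 11 of 15 genes were tested and 2 were called higher. They were Smad7, an inhibitory SMAD, at 0.26 ± 0.0343 (limma adjusted p 0.000113) and Acvr1b, a type I activin receptor, at 0.20 ± 0.0423 (adjusted p 0.00388). Inhba, the paralogue of Inhbb, was not analysed here. Of 14 plexins, class 4 semaphorins and their effectors tested, 2 were called higher in the averaged contrast and none in either single one. Plxnb1, the closest relative of Plxnb2, was at 0.19 ± 0.0472 (adjusted p 0.0129) and Sema4a at 0.21 ± 0.0594 (adjusted p 0.0246). Of 9 muscleblind and CELF splicing factors, 2 were called higher, Celf4 at 0.25 and Celf5 at 0.21, and 1 lower, Celf1 at -0.09, named after its value was seen. The paralogue Mbnl2 was at 0.16 (interval -0.01 to 0.32) and Mbnl3 at 0.06 (interval -0.10 to 0.21).

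Of 16 genes of the silencing and decay machinery that works with TRIM71 on bound mRNAs, none was called higher and 1 lower, Cnot6l at -0.15 ± 0.0506 (limma adjusted p 0.0476). With Lin28a intact 2 of the 16 were called lower, against 6.43% of all genes, and without Lin28a none was called. They were Smg1 at -0.53 (adjusted p 0.0137) and Cnot1 at -0.26 (adjusted p 0.0427), both named after their values were seen. A further list held 3 genes linked to TRIM71, Egr1, Shcbp1 and Ago2. Their median was -0.0001 in the averaged contrast and none was called in it. Whether TRIM71 binds the mRNAs of these genes was not tested. With Lin28a intact, Shcbp1 was called lower at -0.29 (adjusted p 0.0473). The median over all genes was -0.008.

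The gene outside the list whose centred values were nearest to each risen target over the 18 libraries was found by the root mean square difference. It was Slco4a1 for Plxnb2 (0.0866, where the values of Plxnb2 themselves vary by 0.377), Dcxr for Cdkn1a (0.0846 against 0.344), Mras for Inhbb (0.168 against 0.610) and Nr3c1 for Mbnl1 (0.140 against 0.30). These are descriptions of similar patterns over the same libraries.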

How the data were processed

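Gene expression of mouse embryonic stem cells was taken from 1 deposited table with 21685 gene symbols and 19 libraries. The authors deposited log2 values (range -0.71 to 16.30); the base is inferred from the values. Per the submitters' processing notes, CASAVA 1.8, STAR and DESeq2 were used; the counting, annotation and build are not given in the sources used here. Depth is unknown and counting error cannot be given. The deposited values carry no day effect (no gene has a day term above 1.2e-08). This makes a check of the pairing by correlation void; day labels pair the libraries. KO-WT replicate 5, alone on its day, held the average of its genotype's remaining libraries, with no gene differing by more than 7.5e-09, and was left out.

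A gene was tested if 4 or more libraries reached log2 of 10. Tests were run with limma 3.58.1 in R 4.3.3 (eBayes with trend; genotype means plus day; 18 libraries; 10 residual degrees of freedom), with Benjamini-Hochberg adjustment over 14988 genes. The members and lists were chosen with earlier results of these data known. In each list up to 2 called genes with the largest averaged Trim71 difference, and 7 close relatives, are named. The scripts were tested on simulated data. Alternatives were the day term, filters, scaling, GC and length, clones, days, variance model and left-out libraries.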

Additional observations from a re-analysis of the deposited data

Results flagged for a closer look

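Among 28 combinations of member and genotype examined with Dixon's test at the 95% level, 1 library stood apart: Rbl1 in WT-KO replicate 4, at 8.06, with a gap to the next library of 0.748 of the group's range. Chance alone marks about 1 in 20 groups. Without that library the Rbl1 difference after Lin28a loss with Trim71 intact was -0.03 in place of 0.03, and neither was called.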

How the results depend on the processing

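The number of members called changed by more than 1.5 times in these fits. Shares in brackets are of all genes called by limma in the same fit, at the adjusted threshold. They are no measure for a count at an unadjusted p. In clones E3 and C1 alone it was 0 of 7 for Trim71 loss with Lin28a intact (0.0667%; 3 of 7 at an unadjusted p under 0.05), 2 without Lin28a (1.02%), 2 in the averaged contrast (2.70%), 3 for Lin28a loss with Trim71 intact (15.5%) and 2 in Trim71-null cells (24.0%), against 3, 4, 4, 5 and 4 with all libraries. In clones 1 and 1-4 alone it was 3 for Lin28a loss with Trim71 intact (29.2%). With days 3, 4 and 5 alone it was 2 for Trim71 loss without Lin28a (1.45%) and 3 for Lin28a loss with Trim71 intact (31.4%), and with only the 2 genotypes compared it was 1 for Trim71 loss with Lin28a intact (0.20%). These fits hold fewer samples. Without the day block, which pairs libraries by their day label, the Trim71 counts stayed at 3, 4 and 4, and Rbl1 was gained for Lin28a loss in Trim71-null cells (0.22, limma adjusted p 0.0339), which made that count 5. It changed no other call of a member. Day effects had already been removed from the values, so this fit counts degrees of freedom they no longer hold and understates the error (28.1% of all genes called for Trim71 loss with Lin28a intact, against 11.2%). Its calls are no sign of stability.

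Among the members, signs turned only where neither fit called the difference. With the GC and length trend removed, Rbl1 was 0.0827 for Trim71 loss with Lin28a intact, Rbl2 -0.0217 for Lin28a loss in Trim71-null cells, Mbnl1 0.0325 for loss of both, and the interaction was 0.0625 for Cdkn1a and -0.0241 for E2f7. In clones 1 and 1-4 alone the same Rbl1 difference was 0.30, Rbl1 was -0.0039 for Lin28a loss in Trim71-null cells, Mbnl1 0.0410 for loss of both, and the interaction was -0.12 for Rbl1, -0.20 for Inhbb and -0.13 for Plxnb2. In clones E3 and C1 alone Rbl1 was -0.0591 in the averaged contrast and -0.0720 for Lin28a loss with Trim71 intact, and the interaction was 0.0485 for Cdkn1a and -0.0562 for E2f7. With days 3, 4 and 5 alone Rbl2 was -0.0582 for Trim71 loss without Lin28a and -0.0369 for Lin28a loss in Trim71-null cells, Rbl1 -0.0160 in the averaged contrast, and the Plxnb2 interaction -0.0812. The cause was not tested.

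Leaving out 1 library at a time gave, for Trim71 loss with Lin28a intact, -0.15 to 0.0713 for Rbl1, -0.0143 to 0.16 for Rbl2 and -0.0217 to 0.17 for Mbnl1, and -0.0026 to 0.11 for Rbl1 in the averaged contrast. For Lin28a loss with Trim71 intact it gave -0.0289 to 0.14 for Rbl1 and -0.0033 to 0.0911 for Rbl2, and in Trim71-null cells -0.0521 to 0.11 for Rbl2 and -0.21 to 0.0037 for Mbnl1. For loss of both it gave -0.16 to 0.0689 for Mbnl1, and for the interaction -0.10 to 0.0608 for Cdkn1a, -0.11 to 0.0673 for Rbl2, -0.0213 to 0.0651 for E2f7 and -0.0502 to 0.0898 for Plxnb2. Depth is unknown, so what it limits cannot be stated.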
